A study of Homo sapiens with 12 samples.

Results

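The transcripts described here were among those that kept the most signal in control cells over the first 8 h of actinomycin D. They were chosen by 1 ratio in each of 2 control replicates: the signal after 8 h of actinomycin D over the signal at 0 h had to exceed 0.90 in each. The word stable below refers to this ratio alone. Spike-in transcripts were dropped, as were symbols of ribosomal proteins, respiratory chain and ATP synthase subunits, elongation factors, proteasome subunits and small nucleolar RNAs or their hosts. The rule kept 102 of 9529 genes. A further 23 genes passed both ratios and were dropped by symbol. The members' shNS libraries at 0 and 8 h were therefore used by the rule, and changes and differences that contain their levels are given as a description with no test. Their spread between replicates still enters the standard errors of the tests below, which pool all groups.

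The cells were NOMO-1, an established human acute myeloid leukaemia line with monocytic features. The knockdown groups carried lentiviral hairpins against ALKBH5 and were sampled at 0, 8 and 12 h in actinomycin D, with 2 libraries at each time. One of these came from a line with the letter D and the other from a line with the letter E, and the sources used here do not say which letter is which of the 2 hairpins. The control groups carried the hairpin shNS and were sampled at the same times, with 2 replicates each. Each hairpin gave 1 library per time, nothing says that replicates were separate cultures, and a p-value here speaks for the spread of these libraries alone, which may be technical. The treatment protocol in the labels speaks of lentivirus against FTO, puromycin selection and other drugs, and the sample titles, which name ALKBH5 and actinomycin D, were followed.

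Actinomycin D stops transcription, so the RNA that is left afterwards reports how slowly a transcript is lost. ALKBH5 removes N6-methyladenosine from RNA, a mark that reader proteins can use to send mRNA to decay. Long-lived mRNAs in mammalian cells are known to encode metabolic enzymes and structural proteins, whereas mRNAs of immediate-early transcription factors are known for rapid loss, often through AU-rich elements in the 3′ UTR.

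ALKBH5 itself had a signal of 25.4, 1.52 and 0.636 at 0, 8 and 12 h in line D and 21.2, 4.29 and 0.973 in line E, against 84.3, 35.9 and 8.22 in shNS replicate 1 and 78.6, 32.1 and 8.30 in shNS replicate 2. It was lower in each knockdown line than in either shNS replicate at every time. The summed signal over all genes was 826000 to 953211 at 0 h, 390103 to 580217 at 8 h and 143765 to 193639 at 12 h, while the median spike-in stayed between 29.9 and 33.1. Of 18 monocytic or granulocytic markers 11 were in the table, and their summed signal at 0 h was 5907 and 8060.2 in the knockdown lines and 2989 and 3023 in the shNS replicates. At 12 h the same sum was 1364 and 2009 in the knockdown lines and 921 and 821 in the shNS replicates. ELANE and CTSG made up most of each sum. At 12 h PRTN3 and AZU1 in line D and CD33 in line E lay below both shNS replicates. Every other marker value in the lines at 12 h lay above both. None of the erythroid, megakaryocyte, epithelial or fibroblast markers listed was in the table. In bulk RNA, fewer cells of a type and less RNA per cell cannot be told apart.

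By construction the members kept their signal in shNS cells at 8 h, with medians of 101% and 95.2% of 0 h in the 2 replicates against 42.2% and 41.1% over all genes. Among the members 22 lay above 100% in both replicates. Slow loss alone cannot lift a ratio above 100%, and what did so was not tested. By 12 h the lowest member in each shNS replicate was left at 13.7% and 13.8% of 0 h. The last genes to pass were NME2, FABP6 and RETN. NME2, a nucleoside diphosphate kinase, stood at 106% and 90.1%. FABP6, of the fatty acid-binding protein family, stood at 193% and 90.1%, and RETN, the secreted peptide resistin, at 90.2% and 108%. The first to miss were CYBA, a subunit of the phagocyte NADPH oxidase, at 90.3% and 89.9%, TOMM7, a part of the mitochondrial import pore, at 97.4% and 89.9%, and the integrin chain ITGB2 at 96.5% and 89.8%. The boundary therefore runs through a continuous range, and the count is a matter of the threshold: a ratio of 0.80 would give 344 members and a ratio of 1 would give 22.

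The knockdown lines, which the rule did not use, also kept more of these transcripts than of the average gene. At 8 h line D still held 66.8% of its 0 h signal at the median member and line E held 74.6%, against 23.9% and 33.6% over all genes. Over 50% was left in both lines for 84 of 102 members and for 9.25% of all genes. Over 90% was left in both lines for 2 members, RPPH1 and CCDC159, or 1.96%, and for 14 of all 9529 genes, or 0.147%. At 12 h the median member was left at 38.2% in line D, 27.7% in line E, 44.0% in shNS replicate 1 and 42.1% in shNS replicate 2, against 10.9%, 10.7%, 11.9% and 12.9% over all genes. Between 8 and 12 h the members lay closer to the average gene. At the median member the 12 h signal was 58.3% (line D) and 37.4% (line E) of the 8 h signal, 43.1% and 43.4% in the shNS replicates, and 48.1%, 32.9%, 29.99% and 32.9% over all genes in the same order. Line D kept more than line E at 8 h for 34 members, or 33.3%, against 12.2% of all genes, and at 12 h for 80 members, or 78.4%, against 58.6% of all genes. The crossing of the lines was therefore seen over all genes as well.

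**Figure D1:**
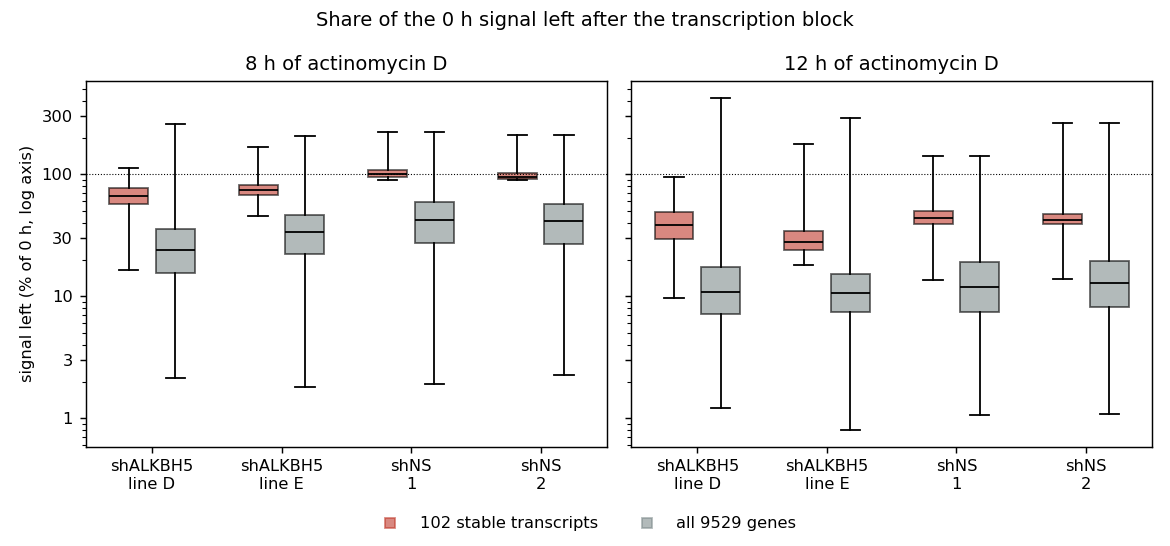
Signal left at 8 h (left) and 12 h (right) of actinomycin D as a percentage of the 0 h signal, on a log axis, in knockdown lines D and E and shNS replicates 1 and 2, for the 102 stable transcripts (red) and all 9529 genes (grey). Boxes span the quartiles with the median, and whiskers reach the lowest and highest gene; the shNS boxes at 8 h were fixed by the rule, while the line D and line E medians of 66.8% and 74.6% were not.

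Tested with limma on log2(signal + 1), with Benjamini-Hochberg adjustment over all genes, 31 of 102 members fell in the knockdown lines by 8 h and none rose, whereas 96% of all genes fell. The median change was -0.45 for members and -1.66 for all genes. Lines D and E recur at each time, so the line can be held as a block, and with this replicate block 78 members fell against 99.2% of all genes. By 12 h 88 members had fallen since 0 h, against 99.6% of all genes, with medians of -1.48 and -2.80. Between 8 and 12 h 75 members fell, against 93% of all genes, with medians of -0.996 and -1.06. These falls are on the deposited scale, which apparently follows the spike-ins. After median-of-ratios scaling, which sets the average gene near 0, the member median at 8 h turned to +1.26 and 0 members fell. Scaled to ribosomal protein genes it was +0.42. The medians at 12 h relative to 0 h turned likewise, to +1.46 and +0.69, and those between 8 and 12 h to +0.22 and +0.25. On these scales all genes had medians of 0.04 and -0.77 at 8 h. Leaving out line E at 0 h changed the 31 to 19, leaving out line D at 8 h to 20, and leaving out line E at 8 h or either line at 12 h to 47.

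Members were sorted by hand into functions after their values had been seen, so the counts below describe the list and single out nothing. The 2 most abundant were FTL, of iron storage, and CTSD, of the lysosome, followed by ENO1 of glycolysis. At 0, 8 and 12 h FTL, the ferritin light chain, had 11882, 8732 and 5859 in line D and 11841, 7642 and 3128 in line E, against 7493, 7418 and 2846 in shNS replicate 1 and 7262, 6617 and 2743 in replicate 2. FTL was higher in both lines than in both shNS replicates at every time, by a difference at 12 h of 0.62 ± 0.25 (log2, SE) that did not pass (adjusted p = 0.22, limma). With the replicate block the adjusted p was 0.031. Each line lies in 1 arm, so between arms the block takes the spread between lines out of the error, and such p-values speak of these lines only.

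FTH1, the ferritin heavy chain that oxidises iron for storage, had 1779, 1648 and 1295 in line D at 0, 8 and 12 h and 704, 534 and 235 in line E, against 661, 704 and 335 in shNS replicate 1 and 633, 627 and 294 in replicate 2. Line D stood apart at every time, and line E lay below both shNS replicates at 8 and 12 h. TFRC, the transferrin receptor that brings iron into the cell, had 275, 110.4 and 48.2 in line D and 117, 74.4 and 25.05 in line E, against 132, 126 and 46.9 and 103, 95.6 and 39.4 in the shNS replicates. TFRC was among the members with the largest fall by 8 h in the knockdown lines, -0.98 ± 0.39 (log2, SE, adjusted p = 0.028, limma). Leaving out line D at 0 h gave -0.37 and leaving out line E at 8 h gave -0.70, and it passed in neither case (adjusted p of 0.36 and 0.17). The pseudogene FTH1P3 is nearly identical to FTH1, so how reads were split between them is uncertain.

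These 3 iron genes share a sequence that iron regulatory proteins bind when iron is scarce, the iron-responsive element. In ferritin mRNAs it lies in the 5′ UTR and blocks translation, and in TFRC mRNA it lies in the 3′ UTR and protects against cleavage. The annotated transcripts were searched for its core: a C, 5 bases, the loop CAGTG followed by A, C or T, and 5 bases that pair with the earlier 5. The cores are shown because FTL, FTH1 and TFRC are the members that hold one. They are written as DNA, 5′ to 3′ on the transcript, with the 6 loop bases in capitals.
FTH1 5′ UTR: cttcaaCAGTGCttgga
FTL 5′ UTR: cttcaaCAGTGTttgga
TFRC 3′ UTR, copy 1: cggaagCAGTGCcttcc
TFRC 3′ UTR, copy 2: cgggagCAGTGTcttcc
TFRC 3′ UTR, copy 3: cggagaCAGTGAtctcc
TFRC 3′ UTR, copy 4: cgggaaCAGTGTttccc
A match of this form anywhere in the transcript was found in 3 of 91 members with an annotated coding region and in 1.04% of the 8767 such genes in the table.

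The 9 lysosomal and endosomal members included proteases and membrane glycoproteins, and none of the 9 fell by 8 h in the knockdown lines at adjusted p under 0.05. All 9 changes were nevertheless negative, with a median of -0.34, and all 9 were positive after median-of-ratios scaling. With the replicate block 5 of them fell. CTSD, the aspartic protease cathepsin D, had 6865, 4876 and 3132 in line D and 6009, 4620.3 and 1759.8 in line E, against 4753, 4488 and 1964 in shNS replicate 1 and 4773, 4310.3 and 1854 in replicate 2. The lines were higher than shNS at 0 and 8 h, and only line D was at 12 h. The full list of 43 lysosomal genes in the table, which contains 7 of these members, kept medians at 8 h of 50.1% (line D) and 61.9% (line E), against 75.8% and 72.2% in the shNS replicates. Of these 43 genes 25 fell in the knockdown lines by 8 h, against 96% of all genes.

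The 5 glycolytic members were the lowest group relative to shNS at 12 h, with a median difference of -1.54 on the log2 scale and all 5 negative, also under either rescaling. None of the 5 passed in the comparison of groups as deposited. With the replicate block all 5 passed, after median-of-ratios scaling 3 did, after scaling to ribosomal protein genes 1 did, and with a pseudocount of 0.1 ENO1 and ENO2 did. ENO1, the enolase that makes phosphoenolpyruvate, had 1538, 650.4 and 188 at 0, 8 and 12 h in line D and 2114, 1439.8 and 485 in line E, against 2338, 2254 and 914 and 2208, 1994 and 846 in the shNS replicates. Its difference at 12 h was -1.54 ± 0.41 (log2, SE, adjusted p = 0.086, limma). Both lines lay below both shNS replicates at every time, and line D lay below line E. ENO2, a second enolase gene best known from neurons, had 12 h signals of 2.73 and 7.37 in lines D and E, against 26.0 and 25.3 in the shNS replicates. Of the 13 glycolytic genes in the list used here, which holds 3 of the members, 1 was lower in knockdown than in shNS cells at 12 h and none was higher.

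Of the 6 transcription factors, ATF3 and JUN were among the 8 members with the highest control ratios. ATF3, a stress-induced leucine zipper factor, had 8.48, 1.40 and 0.958 at 0, 8 and 12 h in line D and 3.57, 3.07 and 0.924 in line E, against 1.97, 3.88 and 0.765 and 2.00, 3.07 and 0.786 in the shNS replicates. It stood above its 0 h level at 8 h in both shNS replicates, which the rule favoured, at 197% and 153% of it, and in neither knockdown line. Its fall by 8 h in the knockdown lines was -1.07 ± 0.30 (log2, SE, adjusted p = 0.0042, limma). At 8 h 16.5% was left in line D and 86.1% in line E. ATF3 signals were low, with a mean of 2.57 over the 12 libraries, so these shares rest on small values. Leaving out line D at 0 h gave -0.55 and leaving it out at 8 h gave -0.69, and it passed in neither case (adjusted p of 0.054 and 0.065, limma).

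JUN, a subunit of the AP-1 factor, had 47.6, 29.2 and 23.3 in line D and 26.2, 17.8 and 6.42 in line E, against 22.3, 32.8 and 11.1 in shNS replicate 1 and 22.8, 28.03 and 10.6 in replicate 2. ATF4, the factor that drives amino acid and stress response genes, had 306, 141 and 68.0 in line D and 343, 207 and 77.1 in line E, against 249, 282 and 129 and 237, 260.5 and 113 in the shNS replicates. Its fall by 8 h in the knockdown lines passed, at -0.91 ± 0.21 (log2, SE, adjusted p = 0.0013, limma). EGR1, an immediate-early zinc finger factor, had 3.17, 0.918 and 0.715 in line D and 3.94, 6.25 and 3.03 in line E, against 4.202, 9.30 and 2.69 and 8.20, 7.88 and 2.85 in the shNS replicates. Its signals were low, and at 8 h line D lay far below the other 3 series.

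The 3′ UTRs of ATF3, JUN and EGR1 hold the pentamer ATTTA, the letters at the centre of AU-rich elements, in 3, 3 and 1 copies. The last copy in each is shown, with the pentamer in capitals, because these are the members whose class is known for rapid loss.
ATF3 3′ UTR: aatattacttATTTAtcctagtatt
JUN 3′ UTR: gcttatgaatATTTAtaacagcatt
EGR1 3′ UTR: gaaaatgtaaATTTAtaaatatatt
Other members held more copies: TFRC 12, MAP1LC3B and HMGN5 5 each, and ENO2 4. Most members held none: ATTTA was found in 28.6% of the 91 annotated 3′ UTRs, against 65.8% over all genes. The median member 3′ UTR was 253 nt, against 943 nt over all genes. A shorter 3′ UTR has fewer places for a match, and length was not adjusted for.

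Among the 6 non-coding members, RPPH1, the RNA of ribonuclease P, never fell under 85.8% of its 0 h level. It had 10.5, 10.5 and 9.04 at 0, 8 and 12 h in line D and 8.36, 10.6 and 14.9 in line E, against 6.22, 6.64 and 8.84 and 3.85, 6.99 and 10.2 in the shNS replicates. It was higher at each later time in line E and in both shNS replicates, and its change by 8 h in the knockdown lines was 0.15 ± 0.25 (log2, SE, adjusted p = 0.56, limma). RPPH1 and RNU11, a small nuclear RNA of the minor spliceosome, are not polyadenylated as a class, and how far a library of selected mRNA measures them was not tested.

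The row MIR3064 had the largest mean fall by 8 h over the 2 knockdown lines, -1.29 ± 0.32 (log2, SE, adjusted p = 0.0018, limma). It was -0.64 without line D at 0 h, and in line E alone TMEM258 fell by more, at -0.77 against -0.64. It had 46.03, 11.2 and 4.45 in line D and 18.1, 11.3 and 3.55 in line E, against 22.6, 32.7 and 3.10 and 21.0, 31.8 and 2.90 in the shNS replicates. At 8 h both shNS replicates stood above their 0 h value, which the rule favoured, and both lines below theirs. Both lines kept a smaller share than both shNS replicates at 8 h for 88.2% of members and 82.5% of all genes. The MIR3064 gene lies inside DDX5, an RNA helicase gene on the same strand. Reads of the DDX5 transcript therefore cannot be told apart from those of the miRNA precursor, and the row does not measure the mature miRNA. DDX5 itself had 238, 56.1 and 17.8 in line D and 126, 62.5 and 16.04 in line E, against 118, 85.4 and 17.95 and 113, 74.1 and 17.7 in the shNS replicates. The mature sequences of RefSeq (GRCh38.p14, minus strand of chromosome 17) are shown to fix which locus the row names, with the seed, bases 2 to 8, in capitals.
hsa-miR-3064-5p, chr17:64500817-64500837: uCUGGCUGuuguggugugcaa
hsa-miR-3064-3p, chr17:64500775-64500797: uUGCCACAcugcaacaccuuaca

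The other members that fell most by 8 h in the knockdown lines were TMEM258, a subunit of the oligosaccharyltransferase, and IGFBP4, a binding protein of insulin-like growth factors. TMEM258 had 119.8, 51.5 and 15.1 in line D and 200.1, 117 and 40.2 in line E, against 142, 157 and 61.1 and 136, 129 and 49.98 in the shNS replicates. IGFBP4 had 13.9, 4.58 and 2.38 in line D and 5.72, 4.07 and 1.41 in line E, against 3.33, 3.04 and 1.24 and 4.202, 3.79 and 1.53 in the shNS replicates. In both genes line D lost more than line E. The change of TMEM258 was -0.98 (adjusted p = 0.044, limma), and it did not pass without line D at 8 h (-0.40, adjusted p = 0.42), without line E at 0 h (-0.62, adjusted p = 0.26), without any 1 of the shNS libraries at 0 or 8 h, or with only libraries outside the rule (adjusted p = 0.072). That of IGFBP4 was -0.91 (adjusted p = 0.012, limma), and it did not pass without line D at 0 h (-0.34, adjusted p = 0.19) or line E at 8 h (-0.84, adjusted p = 0.054).

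At the other end, TPM2, a tropomyosin that stiffens actin filaments, kept 113% in line D and 87.4% in line E by 8 h, against 98.2% and 92.1% in the shNS replicates. DPP7, a dipeptidyl peptidase of lysosomes and vesicles, was left at 88.3% and 86.3% in the lines, against 93.0% and 96.8%. FXYD1, a regulator of the sodium pump, was left at 82.3% and 112% in the lines, against 126% and 168%. None of these 3 passed for a change by 8 h in the knockdown lines (adjusted p of 0.97, 0.40 and 0.92, limma), which does not show that they were constant.

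Between the arms, the 12 h levels were not used by the rule, and they were compared in the model of all groups, whose error also draws on the shNS libraries at 0 and 8 h. The calls rest on that pooled error: with only libraries outside the rule, no member passed. At adjusted p under 0.05, 2 of 102 members were higher in knockdown than in shNS cells, against 0.525% of all genes, and 2 were lower, against 0.493%. The median difference was -0.02 for members and 0.06 for all genes. At an unadjusted p under 0.05 there were 7 higher and 19 lower. With the replicate block 19 were higher, against 13.4% of all genes, and 29 lower, against 11%. Between arms this block takes the spread between lines out of the error, so these counts speak of these lines only. The split turned with the scale: 4 higher and 17 lower after median-of-ratios scaling, 17 higher and 4 lower after scaling to ribosomal protein genes, which moved the median of all genes to 0.32 and that of the members to 0.24. These are differences in level at 12 h, not in stability.

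CAMP, the antimicrobial peptide cathelicidin, had 6.10 and 7.51 in lines D and E at 12 h, against 1.11 and 1.40 in the shNS replicates. The groups did not overlap, which was a condition for being named, and the difference was 1.79 ± 0.26 (log2, SE, adjusted p = 0.011, limma). At 0 h the gap was already there, 15.7 and 20.9 in the lines against 2.75 and 3.46 in shNS. CD68, a lysosomal glycoprotein of macrophages, had 192 and 127.7 in the lines at 12 h, against 72.1 and 65.1 in shNS, a difference of 1.18 ± 0.22 (log2, SE, adjusted p = 0.034, limma). For CD68 too the gap was there at 0 h, with 318 and 376 in the lines against 154 and 159 in shNS. The myeloid marker sums given above, of which CD68 is a part, were also higher in the knockdown lines, though not for every marker. Their part in these 2 differences was not tested.

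USF2, an E-box-binding transcription factor, had 42.0 and 55.2 in lines D and E at 12 h, against 127 and 115 in shNS. The difference was -1.31 ± 0.28 (log2, SE, adjusted p = 0.048, limma). TPSAB1, a mast cell tryptase whose copies are nearly identical, had 156 and 189 in the lines, against 440.2 and 412 in shNS, a difference of -1.31 ± 0.26 (log2, SE, adjusted p = 0.045, limma). Without either shNS library at 12 h none of the 4 passed, and CAMP alone did without line D at 12 h or without any 1 of the shNS libraries at 0 or 8 h. Without line E at 12 h 15 passed, and without either line at 8 h 11 did, the 4 among them each time.

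By function, the iron group had a median of 0.65 and 3 of 4 members positive, and the lysosomal group a median of 0.39 and 7 of 9 positive. The lines did not share these signs throughout. The positive members included FTH1, CTSB, CTSD, CD63 and GPNMB, in which line E lay below both shNS replicates at 12 h. In FTL and CD68 both lines lay above both. The 5 antigen presentation members were centred at 0.01, and the 9 immune surface and signalling members at -0.01. In that group MARCO, a scavenger receptor of macrophages, had 81.1 and 35.5 in the lines against 30.2 and 28.96 in shNS, while IRAK1, a kinase downstream of Toll-like receptors, had 82.7 and 130.5 against 267 and 243. In both the arms did not overlap, and neither passed (adjusted p of 0.21 and 0.059, limma). Both lines lay above both shNS replicates at 12 h for 17 of 102 members and 3144 of 9529 genes, or 16.7% and 32.99%. Both lines lay below both for 33 members and 2382 genes, or 32.4% and 24.997%.

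**Figure D2:**
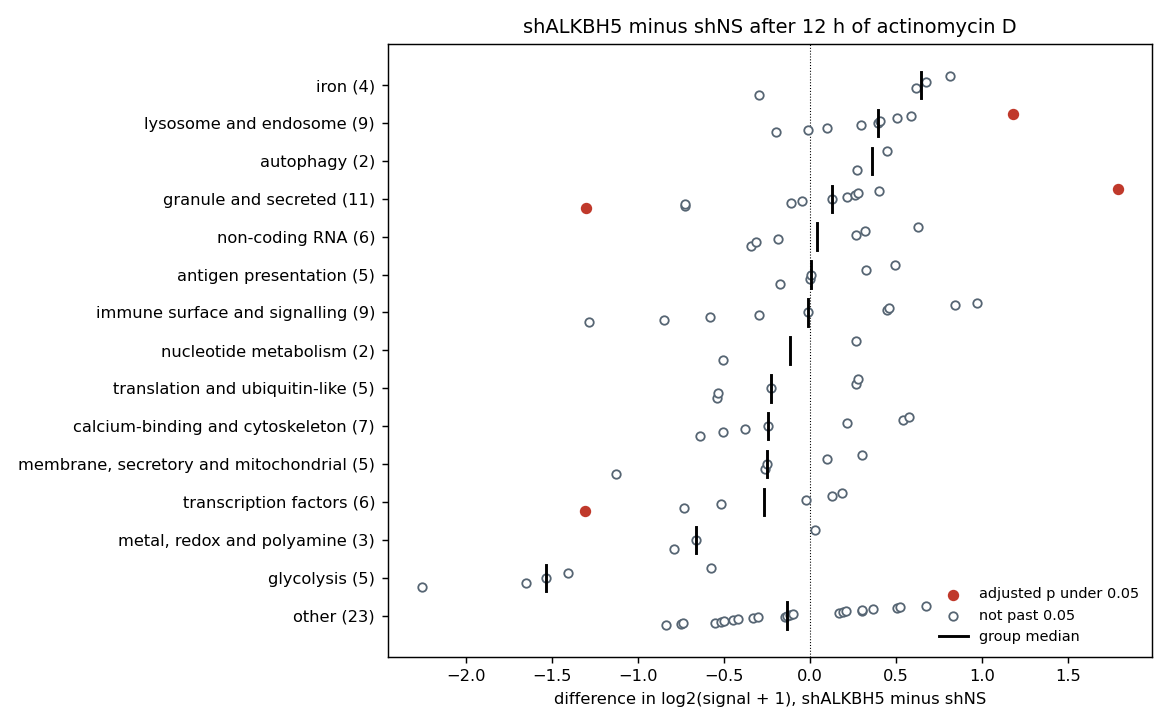
Difference in log2(signal + 1) at 12 h, shALKBH5 minus shNS, for each of the 102 stable transcripts, grouped by function with the number of members in brackets; filled points passed adjusted p under 0.05 (limma) and the bar is the group median. CAMP (1.79) and CD68 (1.18) lie at the right, USF2 and TPSAB1 (each -1.31) at the left, and the glycolytic group is centred at -1.54.

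Much of the spread within the knockdown arm lay between its 2 lines. In a model of time and line, 27 of 102 members were higher in line D than in line E, against 14.2% of all genes, and 27 were lower, against 14.9%. The sign of the difference was the same at all 3 times for 73 of the 102 members. Among the 54 called it was so for 53, which their choice by the mean over these times largely fixes. Each side is 1 line at 3 times, so this compares these libraries and not the hairpins. The standard errors come from a spread that limma pooled over all genes at a given abundance, so the adjusted p do not carry the spread of each gene itself. Without line E at 8 h the number lower was 17.

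In line D 5 of 9 lysosomal members and 3 of 4 iron members were higher and none was lower, with medians of 0.62 and 1.11, although 1 lysosomal member was lower after scaling to ribosomal protein genes. The iron members called include the pseudogene FTH1P3, which is nearly identical to FTH1. Both autophagy members were higher too, but they are a near-identical pair, so neither count is of separate genes throughout. The 9 immune surface and signalling members split into 4 higher and 4 lower. Of the full list of 43 lysosomal genes 22 were higher and 4 lower. GPNMB, a transmembrane glycoprotein of lysosomes and melanosomes (GRCh38, chr7:23235967-23275108), had 2177, 1854 and 1514 in line D at 0, 8 and 12 h, against 589, 469 and 203 in line E. The shNS replicates lay between, at 878, 835 and 379.6 and at 858, 781 and 357. The line difference was 2.25 ± 0.20 (log2, SE, adjusted p = 4.3e-27, limma).

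CTSB, the cysteine protease cathepsin B, had 622, 528 and 399 in line D, against 349.9, 256 and 100.2 in line E. CD52, a short glycopeptide on lymphocytes and monocytes, had 20.3, 22.6 and 19.2 in line D, against 9.90, 7.87 and 5.64 in line E. LSR, a lipoprotein receptor, had 9.16, 7.23 and 5.68 in line D, against 4.38, 2.89 and 1.597 in line E. With FTH1 and JUN, whose values stand above, these were the members furthest above line E among those with a mean signal of at least 5. Below that mean FTH1P3 differed by 1.32. In all but JUN, line D also kept the larger share from 0 to 8 h.

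In line D 4 of 5 glycolytic and 3 of 5 antigen presentation members were lower and none was higher, as were 2 of 3 members of the metal, redox and polyamine group. Of the full list of 13 glycolytic genes 4 were lower, with a median of -0.18, and of 11 antigen presentation genes 5 were lower and 1 higher. CD74, the invariant chain that escorts class II molecules (GRCh38, chr5:150401637-150412929), had 91.1, 60.5 and 31.8 in line D, against 421, 355 and 135 in line E, with shNS between them at 172, 174 and 82.0 and at 156, 152 and 67.3. The line difference was -2.26 ± 0.19 (log2, SE, adjusted p = 7.5e-31, limma). HLA-DRB5, a class II beta chain, had 51.2, 34.97 and 18.7 in line D, against 161, 127.8 and 48.1 in line E. Line D was close to the shNS values of 49.4, 49.7 and 22.6 and of 50.1, 45.9 and 19.7, and line E stood apart. HLA genes are close relatives, so how their reads were divided is uncertain.

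ALDOC, the aldolase form best known from brain, had 23.7, 14.3 and 8.52 in line D, against 77.2, 69.0 and 27.1 in line E. TPI1, which interconverts the triose phosphates, had 319, 148 and 42.4 in line D, against 631, 430.0 and 152 in line E. MT2A, a metallothionein that binds zinc and copper, had 62.8, 38.8 and 18.3 in line D, against 213, 227 and 100.5 in line E. In MT2A the shNS replicates lay between the lines, at 150.3, 162 and 75.8 and at 151, 169 and 75.8, and the line difference was -2.22 ± 0.19 (log2, SE, adjusted p = 4.2e-30, limma).

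**Figure D3:**
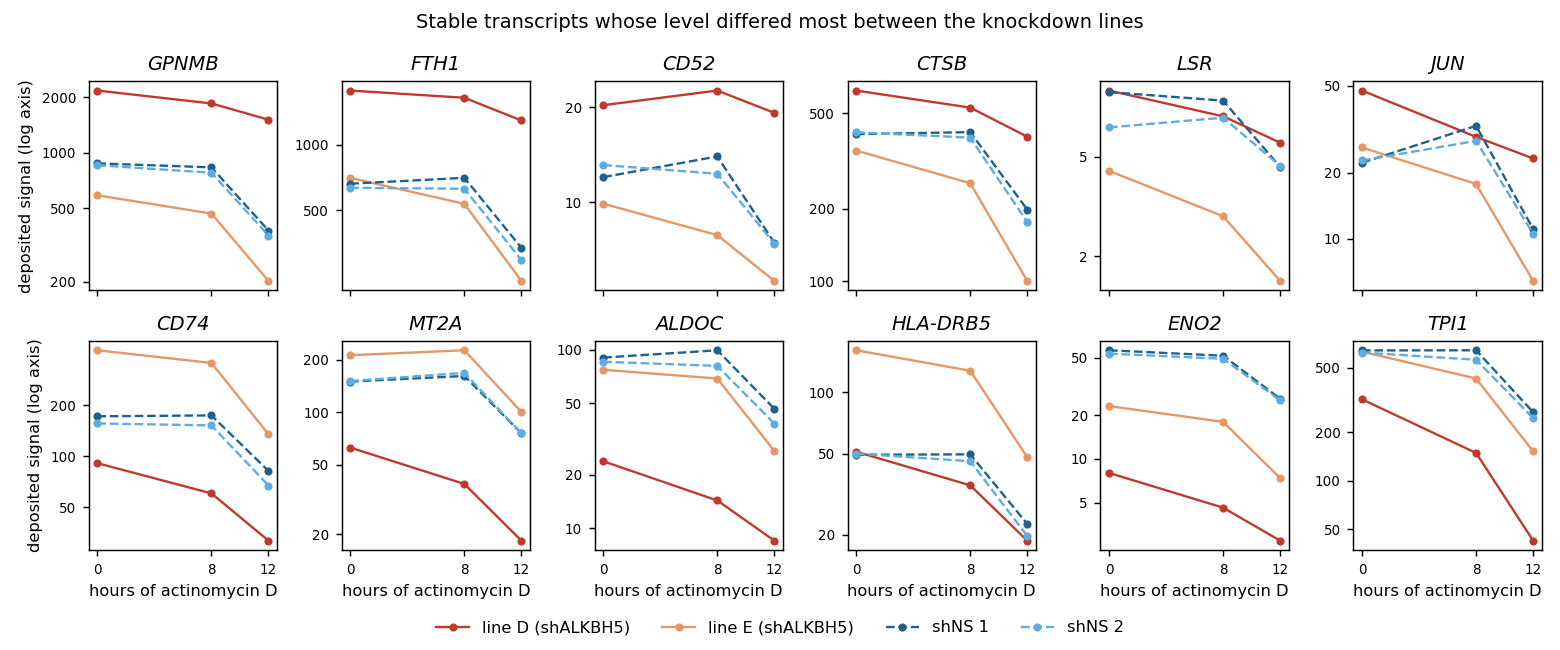
Deposited signal (log axis) against hours of actinomycin D for the 6 members furthest above and the 6 furthest below line E in line D among those with a mean signal of at least 5, in lines D and E (solid) and shNS replicates 1 and 2 (dashed), 1 library per point. By 12 h line D has 1514 and line E 203 for GPNMB, while they have 31.8 and 135 for CD74, and in both genes the shNS replicates run between the lines.

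**Figure D4:**
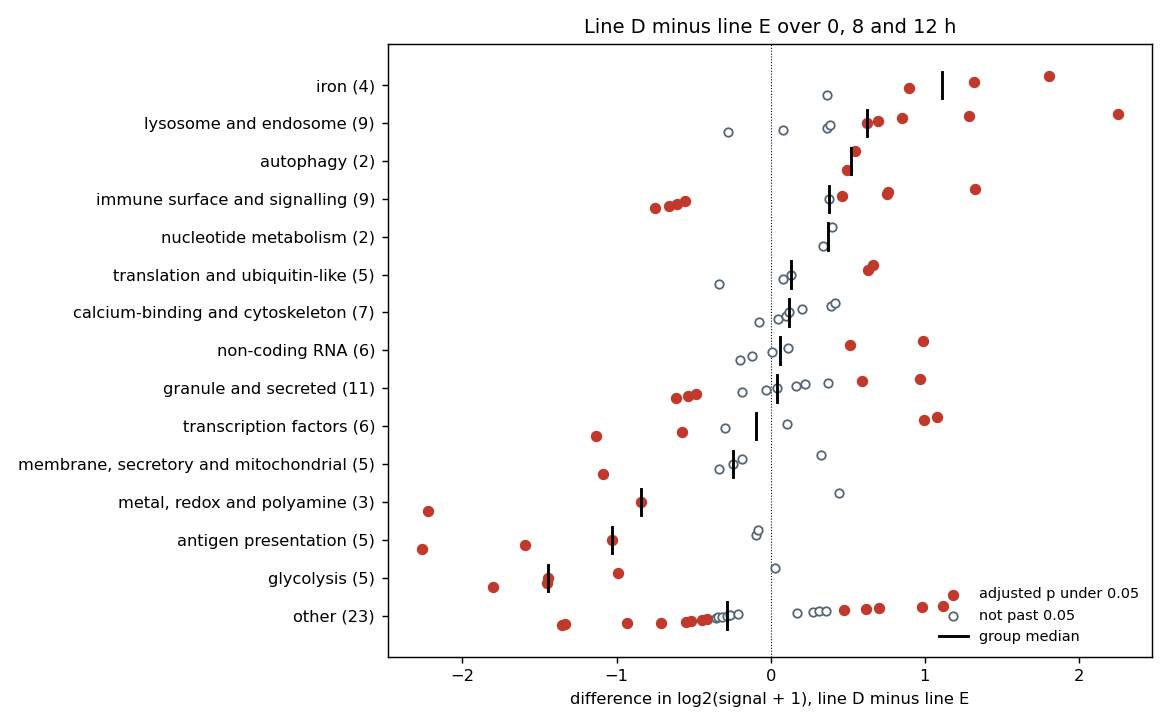
Difference in log2(signal + 1) between line D and line E over 0, 8 and 12 h for each of the 102 stable transcripts, grouped by function; filled points passed adjusted p under 0.05 (limma) and the bar is the group median. The medians run from 1.11 in the iron group to -1.44 in glycolysis.

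The members also shared features of sequence and structure that the rule did not use. Of the 102 symbols 99 were found in GENCODE release 29 on GRCh38, of which 90 were protein-coding and 91 had a coding region. The median coding length was 654 nt among members and 1386 nt over all genes, the median 3′ UTR 253 nt and 943 nt, and the median number of exons 5 and 10. Chromosome 19 held 13 of the 99, or 13.1%, against 6.80% of all genes. The members were more abundant than most genes, with a median mean signal of 53.2 against 13.8, so the features were also read among genes with a mean of 50 or more. There the 51 annotated members had a median coding length of 621 nt against 1039.5 nt and a 3′ UTR of 255 nt against 496 nt. ATTTA was in 29.4% of their 3′ UTRs, against 53.0%.

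Codon use differed as well. G or C stood at 73.7% of the third codon positions in the median member and at 58.3% in the median gene, and at 73.2% against 60.6% among the abundant ones. The extremes among the members were MIF, a secreted inhibitor of macrophage migration, at 97.4%, and HMGN5, a nucleosome-binding protein, at 22.3%. Their opening 60 coding bases are shown, with the third base of each codon in capitals, so that the contrast can be read.
MIF coding sequence: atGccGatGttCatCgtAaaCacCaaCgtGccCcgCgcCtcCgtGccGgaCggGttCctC
HMGN5 coding sequence: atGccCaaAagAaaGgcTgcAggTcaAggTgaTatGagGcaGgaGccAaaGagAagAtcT
By 8 h lines D and E kept 78.0% and 82.9% of MIF and 51.4% and 70.9% of HMGN5. All of these are properties of 1 annotated transcript per gene, described with no test.

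**Figure D5:**
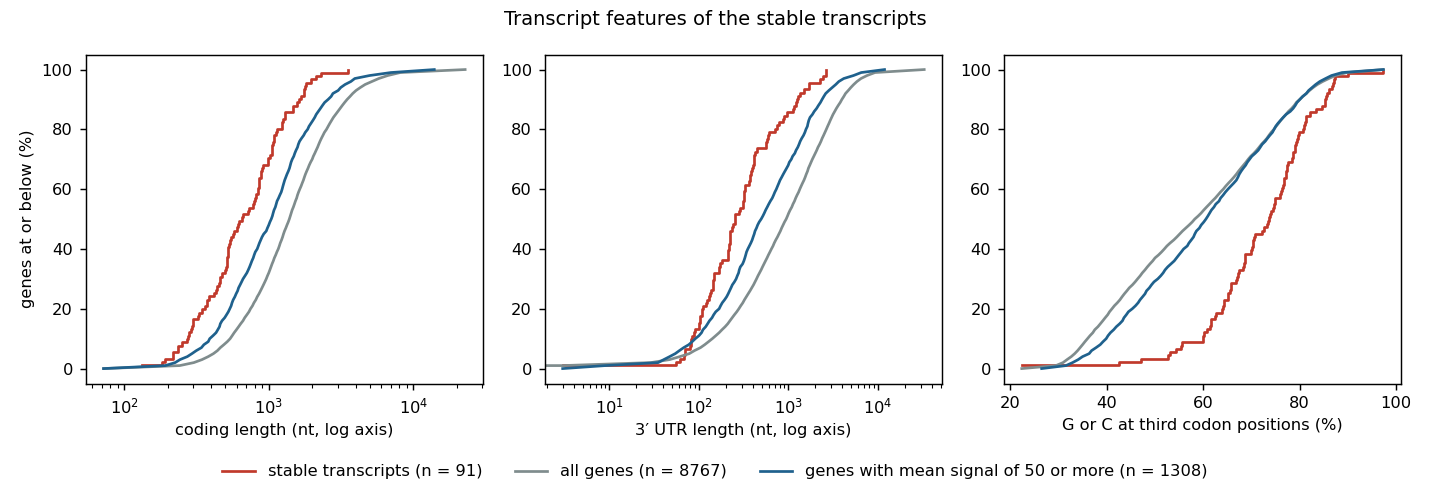
Share of genes at or below each coding length, 3′ UTR length (log axes, nt) and percentage of G or C at the third codon position, for the stable transcripts (red, n = 91), all genes (grey, n = 8767) and genes with a mean signal of 50 or more (blue, n = 1308). The red curve lies left of both others for most of the 2 lengths and right of them for codon use, with medians of 654 nt, 253 nt and 73.7%.

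Some rows stand for more than 1 gene. Of the members 19 overlap another gene of the table, and since no source says that counting used strand, their values are uncertain. In 5 the other gene lies on the same strand, among them NME2, which shares its exons with the read-through NME1-NME2, and EIF4EBP3, an inhibitor of cap-dependent translation, which lies within ANKHD1-EIF4EBP3. MZT2A and MZT2B, components of the microtubule-nucleating complex, and MAP1LC3B and MAP1LC3B2, which coat autophagosomes, are near-identical pairs and their values are uncertain as single genes.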

How the data were processed

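mRNA was isolated from NOMO-1 cells with a magnetic bead kit, per the labels' protocols, and sequenced as 12 libraries in 6 groups of 2. STAR, RSEM and GRCh38 appear in the submitters' processing notes, without versions. The authors deposited a signal per gene symbol and library, whose scaling no label or header states. Because the spike-in medians hardly moved while gene totals fell, spike-in scaling is likely. Depth is unknown, and no value is 0. D and E, from the names of the knockdown columns, served as line names.

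Values were tested in R 4.3.3 with limma 3.58.1 on log2(signal + 1), with a mean-variance trend, over all 9529 genes, each of which had a mean of at least 1. The pseudocount understates changes of low genes, and 22 members had a mean under 5. Groups were compared in 1 model of 6 group means, and the lines in a model of time and line. Adjusted p under 0.05 was called. The procedure was tested on simulated data. Same-lettered knockdown libraries are 1 cell line, so they pair. Their deviations from the group means correlated at 0.777, 0.657 and 0.900 between times, and those of same-numbered shNS replicates at 0.271, 0.065 and 0.138. In the block model and the line model limma estimated no spread of its own for single genes. The members, the gene lists and the functions were chosen with earlier results of these data known. Named are the members with the highest and lowest control ratios, the most abundant, those called with the largest change at a mean of at least 5, those that fell most or least by 8 h, up to 4 of each list and ALKBH5, of which the text gives a part. Those called also had to show no overlap of the arms at 12 h or, between the lines, the same sign at 0, 8 and 12 h. MIF, FTH1P3, EGR1, MARCO, IRAK1, SAT1, TYROBP and the overlapping or near-identical pairs were added after values were seen. Transcript features were computed from GENCODE release 29 with Python 3.11.15. Promoters were available for too few members to compare and were not used. The alternatives tried were no filter, a mean of at least 5, a pseudocount of 0.1, no trend, 2 scalings, the replicate block, each line alone, only libraries outside the rule, other thresholds of the rule, and leaving out each library. The result of the lymphoid marker list is not reported here.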

Additional observations from a re-analysis of the deposited data

Results flagged for a closer look

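The 2 knockdown lines differed past the adjusted threshold in 54 members by the line term of the limma model, and the 6 furthest in each direction among those with a mean signal of at least 5 are given here. Line D was above line E in GPNMB by 2.25, FTH1 by 1.81, CD52 by 1.33, CTSB by 1.28, LSR by 1.12 and JUN by 1.08 on the log2 scale. Line D differed from line E by -2.26 in CD74, -2.22 in MT2A, -1.80 in ALDOC, -1.60 in HLA-DRB5, -1.45 in ENO2 and -1.44 in TPI1. The same direction at 0, 8 and 12 h was a condition for being named here, so it is no support. All 12 stayed past the threshold in each of the 18 alternatives run for them. ALKBH5 was lower than in shNS in both lines, with 0 h signals of 25.4 (line D) and 21.2 (line E).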

How the results depend on the processing

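The counts at 12 h between arms depended most on the choices made. Members higher in knockdown cells numbered 2, and 0 to 8 when 1 library was left out, 0 with only libraries outside the rule, 4 after median-of-ratios scaling, 9 with line E alone, 17 after scaling to ribosomal protein genes, 19 with the replicate block and 37 with line D alone. Members lower numbered 2, and 0 to 8 when 1 library was left out, 0, 17, 34, 4, 29 and 27 in the same order, and 7 with a pseudocount of 0.1. The fall by 8 h in the knockdown lines (31 members) was 19 with a mean of at least 5, 19 to 47 when 1 library was left out, 54 with line E alone, 73 with line D alone, 78 with the replicate block and 0 after median-of-ratios scaling. That scaling, which removes the average fall by construction, also gave 0 for the 88 members by 12 h and for the 75 between 8 and 12 h. The lower count between the lines (27) ran from 17 to 30 when 1 library was left out. The rule itself gave 344 members at 0.80 and 22 at 1. Among members with the highest kept share, 6 uncalled changes by 8 h turned sign: leaving out 1 library gave -0.31 to 0.27 for CCDC159, -0.11 to 0.10 for TPM2, -0.43 to 0.0376 for DPP7, -0.58 to 0.13 for TPSAB1 and -0.58 to 0.51 for FXYD1. Line D alone gave -0.00058 for RPPH1, 0.0609 for CCDC159 and 0.17 for TPM2, and line E alone 0.15 for FXYD1. The block moved no other count by over 1.5 times. Running with no filter was void, as no gene lay under it. The cause of these shifts was not tested. Depth is unknown, so what it limits could not be judged.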

Other observations

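The symbols that the rule dropped left 23 further genes with both control ratios above 0.90, and they were more abundant than the members, with a median mean signal of 262 against 53.2. By 8 h line D kept 73.7% of them at the median and line E 65.4%, whereas of the members line D kept 66.8% and line E 74.6%. By 12 h line D kept 36.9% of them and line E 23.0%. Of the 46 spike-in transcripts 33 passed both ratios.

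Among members of the remaining groups, S100A6, a calcium-binding protein, had 12 h signals of 354 and 195 in lines D and E, against 192 and 161 in the shNS replicates, and the difference of 0.58 did not pass (adjusted p = 0.29, limma). SAT1, which acetylates polyamines, had 75.6 and 115, against 163 and 135. TYROBP, a signalling adaptor of myeloid cells, had 5.94 and 2.91, against 1.79 and 1.53.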
